A study of Sus scrofa with 19 samples.

Results

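A set of 10 genes of the NF-kappaB and cytokine response was examined in pig myocardium: the inhibitors NFKBIA, TNFAIP3 and SOCS3, the transcription factor IRF1, the adhesion molecules ICAM1, VCAM1 and SELE, the ligands CCL2 and IL6, and the receptor IL1R1. They were found by symbol in the table of the authors and followed by Ensembl identifier into the raw counts, which hold 25879 genes. All 10 were among the 13552 genes kept by the filter on low counts.

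The data were bulk mRNA libraries of Sus scrofa heart muscle, 1 per pig, from large white pigs labelled female. The DOX group (n = 5) received doxorubicin, an anthracycline anti-cancer drug, and the MYO group (n = 5) received Myocet, its liposomal form, both at 60 mg/m2 in 3 cycles, and the anterior wall was sampled after 3 months. The RemoLV group (n = 3) had a 90 min balloon occlusion of the left anterior descending coronary artery followed by reperfusion, and the remote posterior wall was sampled after 6 months. The Hyper group (n = 3) were juvenile pigs with a 9 mm stent in the descending thoracic aorta that leaves an artificial isthmus stenosis (1 label names a coronary stent instead), and the Control group (n = 3) had sham treatment according to the labels; in both, the anterior wall was sampled after 6 months. The methods describe the Control pigs as untreated. DOX and MYO came from an earlier study and had the shorter follow-up, and a Y-chromosomal gene was expressed in them alone (values below), so that drug, study, time and sex cannot be told apart when they are set against the other groups.

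NF-kappaB is a family of transcription factors held in the cytoplasm by IkappaB proteins until cytokines such as TNF and IL-1 release it. Among the genes it then switches on are its own inhibitors, so that the response ends itself, together with adhesion molecules and chemokines that recruit leukocytes. IL-6 and interferon signal instead through JAK kinases and STAT factors, which SOCS3 restrains. In the heart, endothelial cells, fibroblasts, resident macrophages and cardiomyocytes can all give such a response, and it is known from ischaemia, overload and drug toxicity.

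The libraries held between 9527710 and 20370209 counts (median 14527230). Library names need care. Each of the 19 sample columns in the table of the authors matched 1 count file, and in 8 of them the group differed: the table columns named Control held the libraries labelled RemoLV and the reverse, and DOX5 and MYO1 were exchanged. Groups here follow the file labels, and the calls that rest on them are also given under the table names; which naming is right was not settled here. In addition, the 3 libraries labelled RemoLV had 9426 to 12703 CPM (counts scaled to the library total, on TMM library sizes) summed over the 5 of 6 atrial cardiomyocyte markers with a row in the counts (BMP10 was at 0 in 17 libraries), vs. 84.6 to 139 CPM in Control, 1106 to 2404 CPM in DOX, 760 to 1239 CPM in MYO and 193 to 1251 CPM in Hyper, and only 25019 to 29131 CPM of the ventricular markers, vs. 49995 to 74431 CPM in Control. In DOX, MYO and Hyper the atrial sum was nearly all MYL7 (1080 to 2379, 736 to 1193 and 172 to 1229 CPM, vs. 59.1 to 111 CPM in Control). MYL4 was at 3.13 to 11.9 CPM in DOX, 2.3 to 21.9 CPM in MYO and 0.55 to 1.54 CPM in Hyper, vs. 0.594 to 3.1 CPM in Control. SLN and NR2F2 did not lie above Control in these groups. The part of the atrial sum in the differences from Control was not tested. In RemoLV, MYL2, the ventricular myosin light chain, was between 18.6 and 115 CPM, vs. at least 13577 CPM in Control. In comparisons with these libraries, treatment, the wall sampled according to the labels and the chamber markers cannot be told apart. The Y-chromosomal gene DDX3Y was at 96.1 to 177 CPM in the 10 DOX and MYO libraries and had at most 2 counts in the other 9, against the label female.

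The upstream sequences of these genes carry the letters that NF-kappaB and STAT factors are known to prefer. In windows from 250 bases before to 50 bases after the RefSeq gene start (Sscrofa11.1), the kappaB consensus was matched in 7 of the 10 genes and in 16.2% of 20667 protein-coding promoters, and TTCNNNGAA, the STAT motif, in 5 of the 10 and in 7.4% of all. Both strands were searched, and the palindromic matches were found on both. SELE held neither motif in this window. A match is a description of letters, not of binding. The stretches below, 60 bases each on the gene's strand with the match in capitals, belong to the genes that the comparisons turn on: first the 3 with the kappaB consensus that differed between the drug groups and Hyper, then SOCS3 and CCL2 with the STAT motif, then ICAM1 and IL6 with the kappaB consensus.
NFKBIA, chr7:64507901-64507960, plus strand: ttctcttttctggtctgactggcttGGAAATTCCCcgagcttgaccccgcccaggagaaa
TNFAIP3, chr1:26489930-26489989, minus strand: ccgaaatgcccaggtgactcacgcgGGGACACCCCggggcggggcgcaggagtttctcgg
IRF1, chr2:134783662-134783721, minus strand: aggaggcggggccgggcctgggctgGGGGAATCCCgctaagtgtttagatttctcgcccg
SOCS3, chr12:3643640-3643699, plus strand: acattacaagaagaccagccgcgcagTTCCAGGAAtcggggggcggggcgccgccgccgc
CCL2, chr12:40800087-40800146, minus strand: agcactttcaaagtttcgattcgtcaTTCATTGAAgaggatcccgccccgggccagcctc
ICAM1, chr2:69096907-69096966, plus strand: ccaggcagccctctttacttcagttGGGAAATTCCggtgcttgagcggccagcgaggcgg
IL6, chr9:91506324-91506383, plus strand: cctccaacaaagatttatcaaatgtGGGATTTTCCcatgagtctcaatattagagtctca

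Counting from the gene start, the kappaB match began at -193 in NFKBIA and TNFAIP3, at -204 in ICAM1, at -83 in VCAM1, at -72 in IL6, at -50 in IRF1 and at -48 in IL1R1. TNFAIP3 had further matches at 21 and 36 and IL1R1 at 27, on the transcribed side. The STAT motif stood at -166 in SOCS3, at -166 and -107 in CCL2, at -90 in ICAM1, at -127 in IRF1 and at -64 in IL1R1. ICAM1, IRF1 and IL1R1 thus held both motifs.

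Across the 10 genes, the comparisons differed in how many members passed the test (edgeR quasi-likelihood, Benjamini-Hochberg adjusted p of at most 0.05 over all 13552 genes). DOX vs. Control called 2 members higher and 1 lower, against 42.1% of all genes called in either direction. MYO vs. Control called 1 higher and 4 lower (42.4% of all genes), and RemoLV vs. Control called 0 higher and 3 lower (47.2%). Hyper vs. Control and DOX vs. MYO called 0 members and 0% of all genes. In each, 3 members had an unadjusted p under 0.05 (17.8% and 7.08% of all genes), and DESeq2 called 0 members, with 312 and 2 of all genes. DOX and MYO together vs. Hyper called 2 higher and 1 lower, against 32.6% of all genes. With 10 members, these counts do not set the list apart from the background of each comparison. The members' median log2 fold changes were -0.24, -0.69, -0.82, -0.34, 0.45 and 0.15 in that order, with the medians over all genes between 0.00 and 0.03. The 4 comparisons with Control share its 3 libraries. The study counted a gene as a DEG where its log2 fold change also reached 2 in either direction. By that measure MYO vs. Control held 2 members (SOCS3 and CCL2; 2.47% of all genes) and RemoLV vs. Control 1 (SOCS3; 6.35%), whereas DOX vs. Control (2.75%), DOX and MYO vs. Hyper (1.75%) and the comparisons without calls held 0.

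Under the table names, the members called were 2 higher and 1 lower in DOX vs. Control (29.6% of all genes), 2 and 1 in MYO vs. Control (29.2%), 3 and 0 in RemoLV vs. Control (47.2%), 2 and 0 in Hyper vs. Control (35.8%), 0 and 0 in DOX vs. MYO (0%, with 3 members and 8.08% of all genes at an unadjusted p under 0.05), and 2 and 1 in DOX and MYO vs. Hyper (32.7%). The last comparison holds the same libraries on each side under both namings. Its calls were the same genes, NFKBIA, TNFAIP3 and IRF1, in the same directions. DEGs over all genes in DOX, MYO, RemoLV and Hyper vs. Control numbered 373, 335, 860 and 0 by file label and 594, 567, 859 and 676 by table name.

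**Figure D1:**
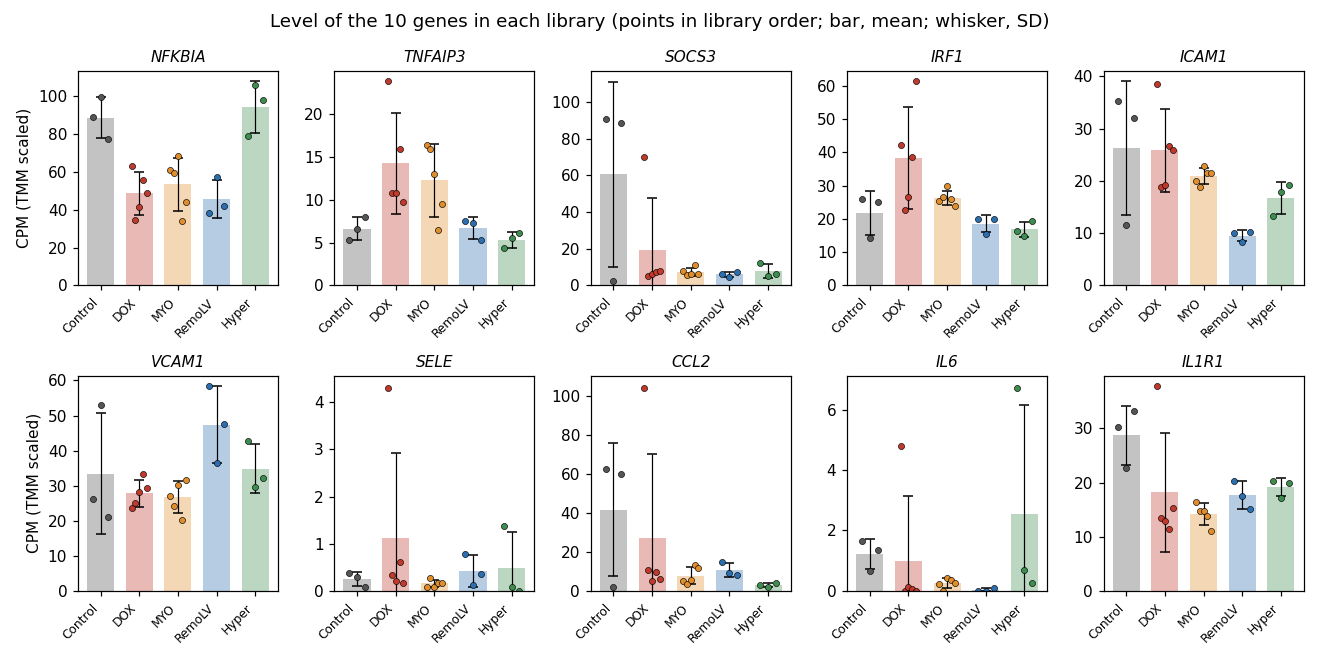
Level of each gene (CPM, linear axes from 0) in every library of the 5 groups by file label; points are libraries in order of replicate number, bars group means and whiskers the SD, cut at 0. NFKBIA sits at 33.9 to 68.6 CPM in the DOX, MYO and RemoLV libraries and at 77.6 to 106 CPM in Control and Hyper, and the first DOX library stands above the other 4 in SOCS3, CCL2, IL6, SELE and IL1R1.

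NFKBIA (ENSSSCG00000001952, chromosome 7, 64508119 to 64510754) encodes IkappaB-alpha, the inhibitor that holds NF-kappaB in the cytoplasm and is itself a rapid NF-kappaB target. Its level was 88.9, 99.5 and 77.6 CPM in Control and 79.2, 106 and 97.8 CPM in Hyper. It was 63.2, 34.4, 41.5, 55.6 and 49.0 CPM in DOX and 61.2, 59.2, 68.6, 33.9 and 43.9 CPM in MYO. In RemoLV it was 38.4, 57.3 and 42.0 CPM. The 6 Control and Hyper libraries therefore lay above all 13 others, with the lowest of them at 77.6 CPM and the highest of the others at 68.6 CPM. The sum of the 7 fibroblast markers, led by COL3A1 and COL1A1 and with none at 0 in any library, split the libraries in the same way in reverse: it was 2055 to 3442 CPM in Control and 1544 to 3834 CPM in Hyper, vs. 4738 to 7068 CPM in DOX, 4546 to 6628 CPM in MYO and 10681 to 12339 CPM in RemoLV. The 3 collagen genes COL1A1, COL1A2 and COL3A1 each made this split, whereas PDGFRA, DCN, LUM and TCF21 overlapped between the drug groups and both Control and Hyper. The part of the sum in the NFKBIA level, and in the differences of TNFAIP3 and IRF1 between the drug groups and Hyper below, was not tested. In bulk tissue, fewer cells of a type and less RNA per cell cannot be told apart.

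NFKBIA fell by 0.86 ± 0.21 (SE) on the log2 scale in DOX vs. Control (1.82-fold, adjusted p = 0.00338), by 0.73 ± 0.21 in MYO (adjusted p = 0.00979) and by 0.95 ± 0.24 in RemoLV (adjusted p = 0.00359). No call was lost when any single library was left out. With the libraries labelled RemoLV as Control, as the table names have it, NFKBIA was higher by 0.95 ± 0.24 in RemoLV (adjusted p = 0.0039) and by 1.04 ± 0.24 in Hyper (adjusted p = 0.00289), while DOX and MYO differed by 0.16 ± 0.22 (adjusted p = 0.625) and 0.15 ± 0.22 (adjusted p = 0.644). In DOX and MYO vs. Hyper it fell by 0.89 ± 0.18 (1.85-fold, adjusted p = 0.00139), and under the table names by 0.89 ± 0.19 (adjusted p = 0.00153). Of all genes, 11.0% had every drug library below every Hyper library, as NFKBIA did.

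TNFAIP3 (ENSSSCG00000004154, chromosome 1, 26474158 to 26489771) encodes A20, a ubiquitin-editing enzyme that shuts off signalling from the TNF receptor to NF-kappaB. Its level was 5.30, 6.59 and 7.97 CPM in Control, 4.33, 5.49 and 6.10 CPM in Hyper, and 7.53, 7.28 and 5.26 CPM in RemoLV. It was 23.8, 10.8, 10.8, 15.9 and 9.75 CPM in DOX and 16.4, 15.9, 13, 6.49 and 9.48 CPM in MYO. All 5 DOX libraries were above all 9 libraries of Control, Hyper and RemoLV, and 1 MYO library, MYO4, lay among them. TNFAIP3 and NFKBIA, both inhibitors, thus lay on opposite sides of Hyper in the drug groups.

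TNFAIP3 was 2.15-fold higher in DOX vs. Control (log2 1.10 ± 0.31, adjusted p = 0.00941), and under the table names 1.21 ± 0.29 (adjusted p = 0.00397). In MYO vs. Control the log2 fold change was 0.89 ± 0.31 (adjusted p = 0.0292), and the call was lost without MYO1 (adjusted p = 0.0657), MYO2 (0.0649), Control1 (0.115) or Control2 (0.0616), and under the table names (0.70 ± 0.28, adjusted p = 0.0711), where it was called without DOX1 (adjusted p = 0.049) or MYO4 (0.0288). RemoLV vs. Control gave 0.02 ± 0.35 and Hyper vs. Control -0.32 ± 0.35. In DOX and MYO vs. Hyper it rose by 1.32 ± 0.30 (2.49-fold, adjusted p = 0.00283), held without any single library at 1.17 to 1.43, and rose by 1.30 ± 0.27 under the table names (adjusted p = 0.00154). Every drug library was above every Hyper library, as in 9.98% of all genes.

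SOCS3 (ENSSSCG00000036956, chromosome 12, 3643832 to 3647015) encodes an inhibitor of JAK kinases that is induced by STAT3 downstream of IL-6. Its level was 90.9 and 88.4 CPM in Control1 and Control3 but 2.38 CPM in Control2. In DOX it was 70.1 CPM in DOX1 and 5.09, 6.2, 7.58 and 7.98 CPM in the other 4. The other groups held 7.76, 5.61, 6.28, 11.3 and 6.18 CPM (MYO), 6.05, 4.74 and 7.58 CPM (RemoLV) and 12.2, 5.19 and 6.03 CPM (Hyper). The gene was thus high in 3 libraries of 19, of 2 groups, and Control2 was the lowest library of all. DOX1 alone held 72.3% of the sum over the DOX libraries, and the DOX mean of 19.4 ± 28.4 CPM (SD, n = 5) became 6.71 CPM without it.

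SOCS3 fell in MYO vs. Control (log2 -3.03 ± 0.84, adjusted p = 0.00796) and in RemoLV vs. Control (-3.31 ± 1.03, adjusted p = 0.0135), with leave-one-out adjusted p-values up to 0.0409 and 0.0497. The groups overlapped in both comparisons, since Control2 lay below every library of the other groups. DOX vs. Control gave -1.63 ± 0.81 (adjusted p = 0.112), and it was called without DOX1 (-3.18, adjusted p = 0.0012) and without Control2 (-2.20, adjusted p = 0.0152). Hyper vs. Control gave -2.95 ± 1.01 (adjusted p = 0.167), called without Control2 (-3.52, adjusted p = 0.0087). By table name the RemoLV value was 3.31 ± 1.03 (adjusted p = 0.0134), and DOX, MYO and Hyper gave 1.68 ± 0.93, 0.29 ± 0.92 and 0.37 ± 1.01, none of them called. DESeq2 gave no p for SOCS3 in any comparison.

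Of 2 other marker lists, the immediate-early sum was highest in DOX1 and the blood sum in Control1 and Control3, and neither was high in all 3. JUNB, singled out after its values were seen, was the only immediate-early gene that stood above all other libraries in the same 3, at 142 CPM in DOX1 and 77.9 and 58.3 CPM in Control1 and Control3, vs. 5.04 to 19.4 CPM elsewhere. The summed level of the 8 immediate-early genes, which respond to stimulation within minutes and include FOS, JUN and ATF3, was 4407 CPM in DOX1 and 266 to 524 CPM in the other DOX libraries; it was 361 to 512 CPM in Control, 263 to 698 CPM in MYO, 196 to 246 CPM in RemoLV and 316 to 610 CPM in Hyper, where Hyper1 was the highest. FOSB alone was at 0 in 1 library. The sum of the 3 measured of 4 blood markers, led by haemoglobin HBB, was 350 and 339 CPM in Control1 and Control3 and 36.2 CPM in Control2, vs. 8.40 to 112 CPM in DOX with the highest in DOX1, 12.8 to 197 CPM in MYO, 10.1 to 41.5 CPM in RemoLV and 21 to 119 CPM in Hyper; SLC4A1 was at 0 in 14 libraries. Of 2 further lists, the neutrophil sum was 12, 5.4 and 10.6 CPM in Control1, Control2 and Control3 and 6.93 CPM in DOX1. It was 4.75 to 12 CPM over DOX, 2.51 to 8.55 CPM in MYO, 2.14 to 7.18 CPM in RemoLV and 2.54 to 6.57 CPM in Hyper. S100A8 in this list was at 0 in 5 libraries. The macrophage sum was 282, 218 and 215 CPM in Control1, Control2 and Control3 and 202 CPM in DOX1. The part of any of these lists in the levels of the members was not tested.

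IRF1 (ENSSSCG00000014277, chromosome 2, 134776122 to 134783646) encodes an interferon regulatory factor that interferons and NF-kappaB induce. Its level was 26.0, 14.3 and 25.1 CPM in Control and 42.2, 22.6, 26.7, 38.6 and 61.5 CPM in DOX. It was 25.4, 26.6, 29.8, 25.9 and 23.9 CPM in MYO, 20.1, 15.6 and 20.0 CPM in RemoLV and 16.3, 14.9 and 19.4 CPM in Hyper. DOX5 was the highest library and the MYO libraries lay close together between 23.9 and 29.8 CPM. All 10 drug libraries were above all 6 RemoLV and Hyper libraries, whereas Control1 and Control3 lay among the drug libraries.

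IRF1 rose in DOX vs. Control (log2 0.82 ± 0.25, 1.76-fold, adjusted p = 0.016). The call was lost without Control2 (0.58, adjusted p = 0.0829) and with only the groups compared in the fit. MYO vs. Control gave 0.27 ± 0.25 (adjusted p = 0.399). Under the table names, which exchange both DOX5 with MYO1 and Control with RemoLV, IRF1 gave 0.75 ± 0.30 in DOX (adjusted p = 0.0632, and 0.0159 to 0.0462 without DOX5, Control2 or DOX2) and rose by 0.86 ± 0.30 in MYO (adjusted p = 0.0373), lost without DOX5 (0.52, adjusted p = 0.0983) and without each library labelled RemoLV. In DOX and MYO vs. Hyper it rose by 0.91 ± 0.24 (1.88-fold, adjusted p = 0.00715), held without any single library, and rose by 0.94 ± 0.28 under the table names (adjusted p = 0.0144), where it was lost without Hyper1 (adjusted p = 0.0689) or Hyper2 (0.07). The sum of the 6 T cell markers, of which none was at 0 in any library, was 10.5 to 42.1 CPM in DOX (DOX1 lowest, DOX5 highest), 11.9 to 29.4 CPM in MYO, 10.5 to 13.9 CPM in Control, 9.81 to 17.6 CPM in RemoLV and 7.76 to 18.9 CPM in Hyper; its part in the IRF1 levels was not tested.

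**Figure D2:**
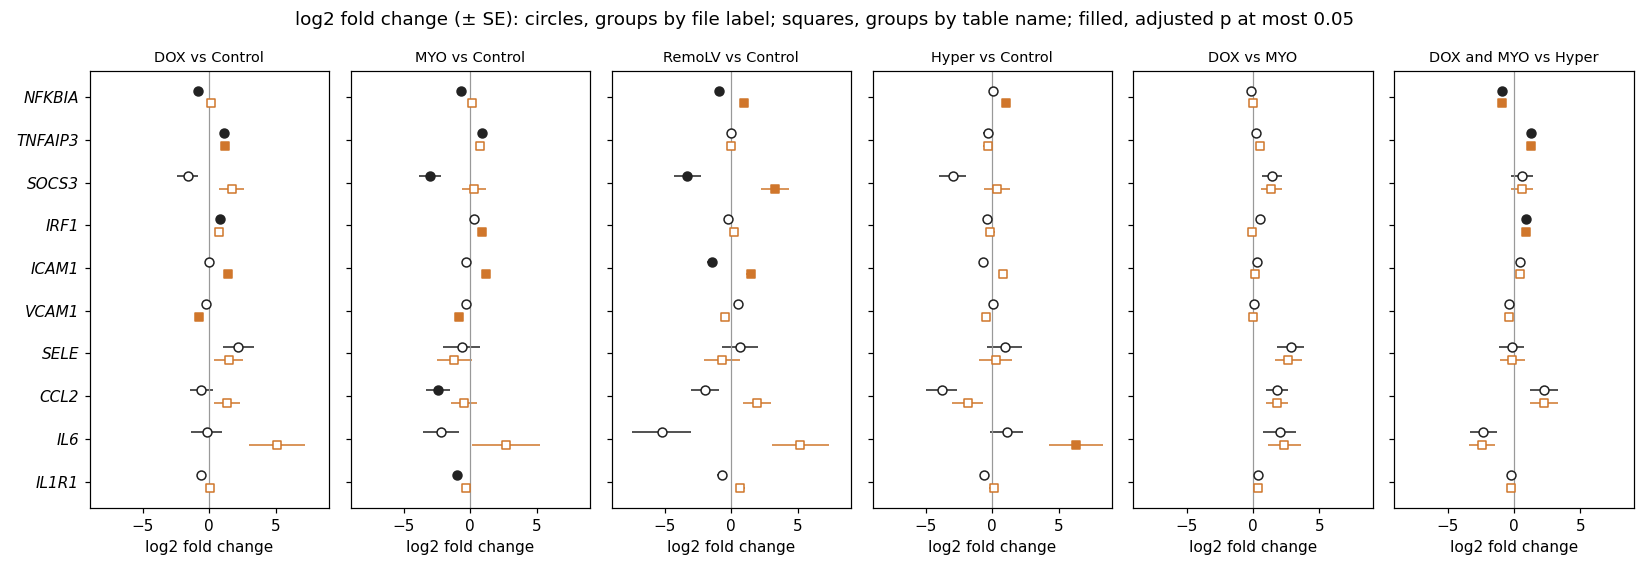
log2 fold change ± SE of each gene (rows) in the 6 comparisons (panels); circles are groups by file label, squares groups by table name, and filled symbols have an adjusted p of at most 0.05. In the last panel NFKBIA (-0.89 and -0.89), TNFAIP3 (1.32 and 1.30) and IRF1 (0.91 and 0.94) are filled under both namings, which hold the same libraries on each side there. In RemoLV vs. Control the symbols mirror each other.

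ICAM1 (ENSSSCG00000013655, chromosome 2, 69097136 to 69107722) encodes an endothelial adhesion molecule that binds leukocyte integrins. Its level was 35.2, 11.6 and 32.1 CPM in Control, 38.5, 18.8, 19.3, 26.7 and 25.9 CPM in DOX, and 20.0, 18.8, 22.8, 21.6 and 21.6 CPM in MYO. It was 10.1, 8.29 and 10.2 CPM in RemoLV and 13.3, 17.8 and 19.2 CPM in Hyper. The 3 libraries labelled RemoLV were the lowest of the 19, and Control2 lay just above them. As with SOCS3, Control1, Control3 and DOX1 held the highest levels.

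ICAM1 fell in RemoLV vs. Control (log2 -1.47 ± 0.32, 2.77-fold, adjusted p = 9.86e-04), at -1.83 to -1.21 with any single library left out. No file-label call was made in DOX (-0.02 ± 0.27), MYO (-0.32 ± 0.27) or Hyper (-0.65 ± 0.31, adjusted p = 0.277), and the Hyper and MYO values were called without Control2 (-1.01, adjusted p = 0.00702, and -0.68, adjusted p = 0.0125). DOX and MYO vs. Hyper gave 0.48, called without Control2 (adjusted p = 0.0411). By table name ICAM1 rose in DOX (1.38 ± 0.30, adjusted p = 0.00211), MYO (1.22 ± 0.30, adjusted p = 0.00502) and RemoLV (1.47 ± 0.33, adjusted p = 0.00126), and gave 0.82 ± 0.32 in Hyper (adjusted p = 0.0569, and 0.00959 to 0.0491 without Control2, DOX1 or Control1). The endothelial marker sum, with 7 of 8 genes in the counts, EGFL7 at 0 in all 19 libraries and VWF and PECAM1 leading, was 697 to 749 CPM in RemoLV, 809 to 986 CPM in Control, 765 to 1071 CPM in DOX, 929 to 994 CPM in MYO and 802 to 900 CPM in Hyper. VWF, PECAM1 and CDH5 were below Control in each RemoLV library, and KDR, TEK and EMCN overlapped. The part of the sum in the ICAM1 level was not tested.

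VCAM1 (ENSSSCG00000006862, chromosome 4, 117496914 to 117511211), the adhesion molecule that binds integrin alpha-4 on monocytes and lymphocytes, had the reverse order within Control: 26.2 and 21 CPM in Control1 and Control3 and 53 CPM in Control2. It was 23.5 to 33.3 CPM in DOX, 20.3 to 31.6 CPM in MYO and 29.7 to 42.7 CPM in Hyper. RemoLV had the highest median, with 58.3, 36.4 and 47.5 CPM. By file label VCAM1 passed the test in 0 of the 6 comparisons, with 0.50 ± 0.27 in RemoLV vs. Control (adjusted p = 0.13), a value that was called without Control2 (1.00, adjusted p = 0.00121). By table name VCAM1 fell in DOX (-0.79 ± 0.24, adjusted p = 0.017) and MYO (-0.81 ± 0.24, adjusted p = 0.0152), both lost without RemoLV1 (adjusted p = 0.105 and 0.0988).

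SELE (ENSSSCG00000006286, chromosome 4, 81289061 to 81299657), the E-selectin of activated endothelium, was near the limit of detection. Its counts summed to 11 for Control, 88 for DOX, 10 for MYO, 17 for RemoLV and 21 for Hyper, and single libraries carried most of them. DOX1 held 4.31 CPM (69 counts), vs. 0.168 to 0.611 CPM in the other DOX libraries, and the DOX mean of 1.12 CPM became 0.33 CPM without it. Hyper1 held 1.37 CPM (20 counts), vs. 0.0753 and 0 CPM, and the Hyper mean of 0.483 CPM became 0.0376 CPM without it. RemoLV1 held 0.774 CPM, and the RemoLV mean of 0.414 CPM became 0.235 CPM without it. SELE passed the test in 0 of the 6 comparisons under either naming; the value in DOX vs. Control was 2.19 ± 1.14 (adjusted p = 0.131).

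CCL2 (ENSSSCG00000017723, chromosome 12, 40798109 to 40800013) encodes MCP-1, the chemokine that draws monocytes through the receptor CCR2. Its level was 62.3 and 59.9 CPM in Control1 and Control3 and 2.14 CPM in Control2. In DOX it was 104 CPM in DOX1 and 10.4, 4.73, 9.41 and 5.80 CPM in the other 4. The other groups held 5.07, 3.46, 5.36, 13.1 and 11.5 CPM (MYO), 14.9, 9.31 and 8.11 CPM (RemoLV) and 3.02, 1.96 and 3.96 CPM (Hyper). The same 3 libraries as for SOCS3 stood above all others. DOX1 held 77.4% of the DOX sum, and the DOX mean of 26.9 ± 43.2 CPM (SD, n = 5) became 7.59 CPM without it.

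CCL2 fell in MYO vs. Control (log2 -2.44 ± 0.91, 5.41-fold, adjusted p = 0.0377). This call was lost without MYO1 (adjusted p = 0.0706), MYO2 (0.0767), MYO3 (0.072), Control1 (0.129) or Control3 (0.136). It was also lost with replicate number as a block and without the libraries labelled RemoLV, and DESeq2 gave CCL2 no p (see the processing section). DOX vs. Control gave -0.61 ± 0.88 (adjusted p = 0.603), and without DOX1 it was called at -2.46 (adjusted p = 0.00736). Hyper vs. Control gave -3.78 ± 1.17 (adjusted p = 0.142), and without Control2 it was called at -4.35 (adjusted p = 0.00955). RemoLV vs. Control gave -1.94 ± 1.05 (adjusted p = 0.136), called without Control2 (-2.51, adjusted p = 0.0356) and without DOX1 (-1.93, adjusted p = 0.0332), a library outside that comparison that enters through the spread shared by all groups. CCL2 by table name was called in 0 of the 6 comparisons.

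IL6 (ENSSSCG00000020970, chromosome 9, 91506421 to 91510830), the cytokine of the acute phase response, was scarcely detected. The counts summed over the group were 52 for Control, 80 for DOX, 16 for MYO, 1 for RemoLV and 111 for Hyper. Its level was 1.64, 0.653 and 1.34 CPM in Control. In DOX, DOX1 held 4.81 CPM (77 counts) and the other 4 held 0, 0.133, 0.0611 and 0 CPM. In Hyper, Hyper1 held 6.73 CPM (98 counts) and the other 2 held 0.677 and 0.268 CPM. The MYO libraries lay between 0 and 0.423 CPM. The group means of DOX and Hyper thus rested on 1 library each: 1.00 CPM became 0.0486 CPM without DOX1, and 2.56 CPM became 0.473 CPM without Hyper1. Intervals given here cover counting error only.

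By counts pooled over the group and divided by the pooled totals, IL6 was 35.5 times as high in Control as in RemoLV (95% interval 6.10 to 1430), which rests on the single RemoLV count, and 3.52 times as high in Control as in MYO (1.98 to 6.61). Under the table names both turn, since the single count is then that of Control: IL6 was 35.5 times as high in RemoLV as in Control and 8.27 times as high in MYO as in Control (1.24 to 351). These ratios hold no spread between pigs. In the edgeR test over libraries IL6 was called in 0 of the 6 comparisons by file label. RemoLV vs. Control gave -5.22 ± 2.23 (adjusted p = 0.0617), groups that did not overlap and a value that rests on the single count. That comparison was called by DESeq2 (-5.59, adjusted p = 0.0225), with only these 2 groups (adjusted p = 0.0039), and without DOX1 (adjusted p = 0.00676) or Hyper1 (0.0417), which enter through the shared spread. By table name it gave 5.22 (adjusted p = 0.0566), called without DOX1, DOX2, Hyper1 or Hyper3 (0.00922 to 0.0481). MYO vs. Control gave -2.23 ± 1.35 (adjusted p = 0.193, and 0.0467 without DOX1). DOX vs. Control gave -0.21 ± 1.18 (adjusted p = 0.905), and without DOX1 -4.28 (adjusted p = 0.00763). DOX and MYO vs. Hyper gave -2.31 ± 1.00 (adjusted p = 0.0841), with -4.35 without DOX1 (adjusted p = 4.41e-04), -2.84 without Hyper3 (adjusted p = 0.0456) and 0.13 without Hyper1 (adjusted p = 0.965). Under the table names Hyper vs. Control was called (adjusted p = 0.023), a comparison with the libraries labelled RemoLV and their single count, and was lost without Hyper1 (adjusted p = 0.226) and without each of the RemoLV libraries.

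**Figure D3:**
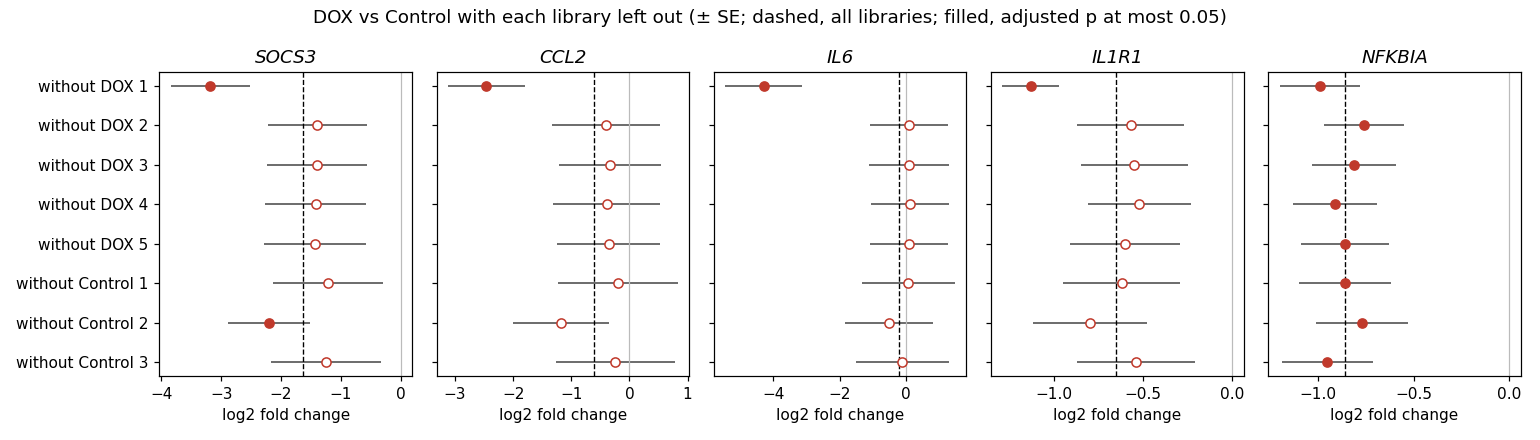
DOX vs. Control for 5 genes (panels): log2 fold change ± SE with each DOX or Control library left out in turn (rows), the dashed line being the value with all libraries and filled points having an adjusted p of at most 0.05. Leaving out the first DOX library moves SOCS3 from -1.63 to -3.18, CCL2 from -0.61 to -2.46 and IL6 from -0.21 to -4.28, whereas NFKBIA stays between -0.99 and -0.76.

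IL1R1 (ENSSSCG00000008162, chromosome 3, 52192912 to 52334734) encodes the signalling receptor of IL-1. Its level was 30.2, 22.7 and 33.2 CPM in Control, 20.3, 17.2 and 20.0 CPM in Hyper and 20.3, 17.6 and 15.1 CPM in RemoLV. It was 37.8 CPM in DOX1 and 13.5, 12.9, 11.5 and 15.2 CPM in the other 4 DOX libraries, and 16.4, 14.8, 14.8, 13.9 and 11 CPM in MYO. Apart from DOX1, every library outside Control was below the lowest Control library. IL1R1 fell in MYO vs. Control (log2 -1.01 ± 0.29, 2.02-fold, adjusted p = 0.00883), with an adjusted p of 0.0501 without Control3. DOX vs. Control gave -0.65 ± 0.29 (adjusted p = 0.0737), and without DOX1 it was called at -1.13 (adjusted p = 4.34e-05). RemoLV and Hyper gave -0.70 ± 0.33 (adjusted p = 0.0861) and -0.58 ± 0.33 (adjusted p = 0.351). The RemoLV value was called without DOX1 (-0.70, adjusted p = 0.00232) and with only the 2 groups compared (adjusted p = 0.023). DOX and MYO vs. Hyper gave -0.25, called without DOX1 (-0.50, adjusted p = 0.00882). Under the table names it was called in 0 of the 6 comparisons, and without DOX1 in the same 2 (adjusted p = 0.00251 and 0.00984).

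Single libraries that drive a mean, taken as those whose omission changes the mean CPM of their group by more than 1.5 times, were thus DOX1 for SOCS3, CCL2, IL6 and SELE, Hyper1 for IL6 and SELE, RemoLV1 for SELE and RemoLV3 for IL6, where it held the only count. Of all genes kept, 2.69% had such a library in DOX, 4.57% in Hyper, 3.78% in RemoLV, 7.22% in Control and 1.85% in MYO. For SOCS3 and CCL2 in Control, 2 libraries were high and 1 low, and the omission of no single one changed the mean by over 1.5 times.

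Free and liposomal doxorubicin were compared at the same dose and follow-up. In DOX vs. MYO, no member passed the test (adjusted p between 0.692 and 0.96). The 95% interval of the log2 difference was -0.52 to 0.26 for NFKBIA, -0.33 to 0.76 for TNFAIP3, -0.38 to 0.50 for VCAM1 and -0.19 to 0.80 for ICAM1. For the genes led by DOX1 it was wide: 1.40 (-0.20 to 3.00) for SOCS3, 1.82 (0.09 to 3.56) for CCL2, 2.02 (-0.57 to 4.62) for IL6 and 2.83 (0.66 to 5.01) for SELE. Without DOX1 the values of SOCS3, CCL2 and IL6 were -0.14, -0.01 and -2.04. SELE then fell below the filter on low counts and has no fitted value, and its mean was 0.33 CPM in the other 4 DOX libraries, vs. 0.154 CPM in MYO. IRF1 gave 0.54 (0.09 to 0.99, adjusted p = 0.695), and under the table names -0.11.

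By median, the groups ranked as follows. For NFKBIA the order was Hyper, Control, MYO, DOX and RemoLV, and among neighbours only Control and MYO did not overlap. For TNFAIP3 it was MYO, DOX, RemoLV, Control and Hyper, and only DOX and RemoLV did not overlap. For ICAM1 it was Control, DOX, MYO, Hyper and RemoLV, with only Hyper and RemoLV apart, and for IL1R1 Control, Hyper, RemoLV, MYO and DOX, with only Control and Hyper apart. In the other 6 genes every pair of neighbours overlapped.

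Within the groups, some members varied together. After the group means of log2 CPM (prior count of 2) were removed, Pearson's r over the 19 libraries was 0.92 for SOCS3 with CCL2, 0.87 for SOCS3 with ICAM1 and 0.85 for ICAM1 with CCL2. With the 2 libraries farthest out, Control2 and DOX1, dropped, these were 0.78, 0.67 and 0.67. Here and below, the group means removed were still those of all 19 libraries. Values without 2 libraries therefore still carry those libraries through the means, and cannot show whether r holds without them. VCAM1 ran the other way, with r = -0.63 with SOCS3, which became -0.35 without Control2 and DOX1. IL6 with SELE gave 0.78 and 0.32 without DOX1 and Hyper1. NFKBIA with TNFAIP3 gave 0.73 and 0.60 without MYO4 and DOX2: within groups, the 2 inhibitors varied in the same direction, although their group differences were opposite. With every member but TNFAIP3, NFKBIA had r between -0.10 and 0.32. These values are descriptions without a test, over libraries that share depth and composition.

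**Figure D4:**
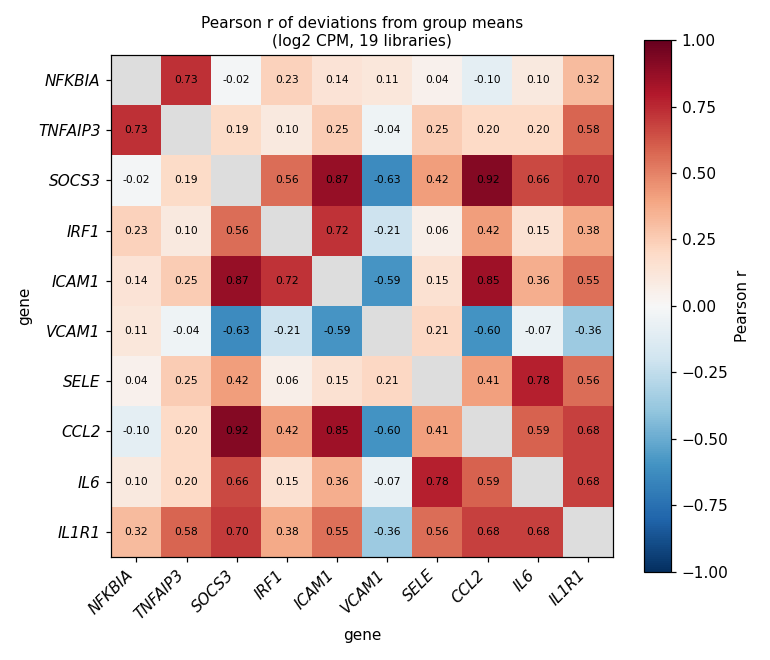
Pearson r between members (rows and columns) of the deviations of log2 CPM from group means over 19 libraries; red is positive, blue negative. SOCS3, ICAM1 and CCL2 form a block at 0.85 to 0.92, VCAM1 is negative with all 3, and NFKBIA is at 0.73 with TNFAIP3.

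Of all genes with a symbol and a mean log2 CPM of at least 2, those most like SOCS3 by the same measure were CHD1, EMP1 and FAM111A (r = 0.95 each, 0.85 to 0.90 without Control2 and DOX1). Every range without 2 libraries in this paragraph again rests on group means that include those libraries. CCL2 ran with B3GNT2, JUNB and GFPT2 (0.94 each, 0.84 to 0.88), ICAM1 with FAM83G, CD81 and PFN1 (0.92 to 0.93, and 0.84 to 0.90), and IL1R1 with RDH10, PIM1 and CEP68 (0.89 to 0.90, and 0.64 to 0.72 without DOX1 and DOX4). NFKBIA ran with DEPP1, GPR108 and GMDS (0.74 to 0.79, and 0.68 to 0.72 without MYO4 and DOX2), and TNFAIP3 with LMCD1, DAPK3 and PABPC1 (0.75 to 0.82, and 0.61 to 0.69 without MYO4 and DOX1). IRF1 ran with CLIC2, TPM3 and HERPUD1 (0.83 to 0.86, and 0.78 to 0.82 without DOX5 and DOX2), VCAM1 with GPR34, STEAP4 and SH3D19 (0.83 to 0.87, and 0.64 to 0.73 without Control2 and Control3). IL6 with TRA2B, SAT1 and PPIA (0.89 to 0.91) and SELE with ZFP36L1, DDX3Y and FAM53C (0.84 to 0.88) were 0.68 to 0.79 and 0.56 to 0.72 without DOX1 and Hyper1.

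Around the members, 82 of 96 listed genes of the same pathways were tested: ligands, receptors and adaptors, kinases, transcription factors, inhibitors, adhesion partners and other targets. In DOX and MYO vs. Hyper, 20 were called higher and 6 lower, vs. 15.8% and 16.9% of all genes, and their median log2 fold change was 0.36 vs. 0.03 over all genes. The counts and the median were equal under the table names, which hold the same libraries on each side of this comparison. The transcription factor RELB, which pairs with NFKB2 in the non-canonical arm, rose by 1.16 ± 0.25 (10.8 ± 2.34 CPM, SD, n = 10, vs. 4.84 ± 1.51, n = 3, adjusted p = 0.0021), and its upstream kinase MAP3K14 by 1.08 ± 0.28 (adjusted p = 0.00732, and 0.0593 without Hyper1). Of the inhibitors, 2 of 12 tested rose and 2 fell: NFKBIE, another IkappaB, rose by 1.22 ± 0.32 (adjusted p = 0.00671, and 0.0592 without Hyper1), opposite to NFKBIA, and PIAS1, a SUMO ligase, fell by 0.88 ± 0.11 (adjusted p = 1.3e-05).

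On the receptor side, 4 of 19 rose and 2 fell in DOX and MYO vs. Hyper. IRAK1, a kinase of the IL-1 and Toll-like receptor complexes, rose by 1.01 ± 0.16 (adjusted p = 1.61e-04), and IL1RAP, the co-receptor that IL1R1 needs, fell by 1.50 ± 0.29 (5.55 ± 2.14 vs. 15.7 ± 7 CPM, adjusted p = 8.75e-04). Among ligands 2 of 9 rose, including CXCL10, an interferon-induced chemokine, by 2.01 ± 0.63 (adjusted p = 0.0203), with 39.0 ± 52.0 CPM (SD, n = 10) in the drug libraries. DOX5 held 185 CPM of CXCL10 and the other 9 held 13.9 to 42.7 CPM. Without DOX5 the mean was 22.8 CPM and the difference 1.44 ± 0.34 (adjusted p = 0.00419). The call was lost without Hyper1 (adjusted p = 0.103), Hyper2 (0.0534) or Hyper3 (0.0563). It was also lost with replicate number as a block (1.34 ± 0.48, adjusted p = 0.0528). Among adhesion partners 2 of 8 rose, including ITGAL, a subunit of the integrin that binds ICAM1, by 1.39 ± 0.30 (adjusted p = 0.00218). The T cell marker sum was 10.5 to 42.1 CPM in DOX (DOX5 highest) and 11.9 to 29.4 CPM in MYO, vs. 7.76 to 18.9 CPM in Hyper. Its part in the ITGAL and CXCL10 levels was not tested. Of the other targets 4 of 13 rose and 1 fell, with IER3 at 1.70 ± 0.54 (adjusted p = 0.0222, lost without Hyper1 at 0.101 or Hyper2 at 0.0849) and CFLAR, an inhibitor of caspase-8, down by 0.37 ± 0.09 (adjusted p = 0.00413). Transcription factors gave 3 higher and 1 lower of 10, and kinases 3 and 0 of 11.

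Against Control by file label, the pathway genes gave 16 higher and 15 lower in DOX (median log2 fold change 0.08), 10 and 19 in MYO (-0.11), 8 and 25 in RemoLV (-0.23) and 0 and 0 in Hyper (-0.31, with 22 at an unadjusted p under 0.05, vs. 17.8% of all genes). In directions, all genes gave 21.0% higher and 21.1% lower in DOX, 20.7% and 21.7% in MYO, and 23.1% and 24.0% in RemoLV. Under the table names these counts were 18 and 7, 12 and 8, 25 and 8, and 10 and 9, vs. 29.6%, 29.2%, 47.2% and 35.8% of all genes in either direction. STAT3, which carries the IL-6 signal and induces SOCS3, fell in MYO vs. Control (log2 -1.21 ± 0.27, 108 ± 5.41 vs. 250 ± 143 CPM, adjusted p = 0.0017) and in DOX vs. Control (-0.87 ± 0.27, adjusted p = 0.0144), the latter lost without Control1 (adjusted p = 0.0818) or Control3 (0.166). Neither STAT3 value was called under the table names (0.08 ± 0.28, adjusted p = 0.849, in MYO and 0.39 ± 0.28, adjusted p = 0.308, in DOX). OSMR, a receptor of the IL-6 family, fell in MYO by 2.07 ± 0.40 (adjusted p = 6.34e-04), and under the table names it gave -1.05 ± 0.42 (adjusted p = 0.0694). In RemoLV vs. Control, 6 of 10 transcription factors fell and 0 rose, with RELB lowest (-1.39 ± 0.30, adjusted p = 0.00119). Among them, the call of REL was lost without RemoLV1 (adjusted p = 0.0779), RemoLV2 (0.0583), Control1 (0.0544) or Control3 (0.194). Under the table names the same comparison is the mirror image.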

How the data were processed

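Bulk mRNA-seq counts of 19 pig myocardium libraries were used. According to the methods and the processing notes of the submitters, the authors used STAR for alignment (Sscrofa11.1), took reverse-stranded gene counts with HTSeq 0.11.1 on Ensembl genes, and deposited these counts unnormalised. The authors also deposited 1 table of transformed log2 expression values per library with their DESeq2 fold changes and p-values; only its symbols and its log2 columns were used, to match columns to count files, and its fold changes and p-values were not used. Members and pathway lists were chosen with earlier results of these data known.

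Counts were tested with edgeR 4.0.16 (R 4.3.3): filterByExpr, TMM factors, 1 quasi-likelihood model of 5 groups by file label, Benjamini-Hochberg adjustment over 13552 genes, threshold 0.05. CPM are on TMM library sizes. The SE of each edgeR difference is its absolute log2 fold change divided by the square root of the test's F. The 95% intervals of differences use this SE and the model's degrees of freedom. Both are approximate where counts are few. CPM are not divided by length, so genes are not ranked against each other. The precision of each value is set by 9527710 to 20370209 counts per library. DESeq2 1.42.0 was an alternative. Replicate numbers are shared by the groups but name different pigs. Deviations from the group means correlated over 0.1 in every same-numbered pair for DOX with Control (0.12 to 0.24, 3 pairs, each of the 6 libraries closest to its own number) and for no other 2 groups; that pairing is a pattern of the data that no label gives, and a replicate block was an alternative fit. Named pathway genes are, per role and comparison, the called gene with the largest positive and the one with the largest negative log2 fold change; of these, those of 1 or 2 comparisons are described. Promoter letters are from the RefSeq Sscrofa11.1 genome and annotation, searched for all 20667 protein-coding genes. The test was run on simulated data first. Reads carry no molecular identifiers.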

Additional observations from a re-analysis of the deposited data

Results flagged for a closer look

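Of 20 tested sets of 5 libraries, 5 (10 genes in DOX and MYO) held a library farther from the others than Dixon's 95% limit, and chance gives about 1 in 20; of all genes kept, 8.72% had such a library in DOX and 6.29% in MYO. The 5 are not independent, since all were DOX1 (3.32% of all genes), the highest of the DOX libraries: SOCS3 at 70.1 CPM (next 7.98), CCL2 at 104 CPM (next 10.4), IL6 at 4.81 CPM (next 0.133), SELE at 4.31 CPM (next 0.611) and IL1R1 at 37.8 CPM (next 15.2). The same library held 4407 CPM of immediate-early transcripts, and the part of these in the levels was not tested.

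The effects of the drug groups and of Hyper, taken against the same Control, differed by the test of the difference itself (edgeR) for 3 members: -0.89 (log2) for NFKBIA, 1.32 for TNFAIP3 and 0.91 for IRF1. Of all genes, 32.6% differed by the same test, so that 3 of 10 does not set the members apart. Drug, study, follow-up and sex (by DDX3Y) cannot be told apart in this difference, and the fibroblast marker sum moved with it through its 3 collagen genes (4546 to 7068 CPM in the drug libraries, 1544 to 3834 CPM in Hyper); its part was not tested.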

How the results depend on the processing

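RLE factors, upper-quartile factors, no filter and a minimum of 10 counts in every library (8 members left) kept the number of members called in each comparison; upper-quartile factors moved the median of all genes in RemoLV vs. Control from 0.02 to 0.14 (log2) and turned ICAM1 in DOX from -0.02 to 0.05. DESeq2 called 3 members in MYO vs. Control and added IL6 in RemoLV vs. Control; it gave SOCS3 and CCL2 no p in any comparison, and SELE no adjusted p in Hyper vs. Control. It called 312 of all genes in Hyper vs. Control and 2 in DOX vs. MYO. With only the groups compared, RemoLV called 5 members (IL6 and IL1R1 added) and IRF1 in DOX had an adjusted p of 0.0832. Without the libraries labelled RemoLV, CCL2 in MYO had an adjusted p of 0.0514.

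Replicate numbers name different pigs, and apart from DOX with Control they did not pair the libraries (over 32 same-numbered pairs, r of deviations between -0.25 and 0.24, median 0.01). The replicate block called 3, 4, 5, 0, 0 and 3 members in DOX, MYO, RemoLV and Hyper vs. Control, DOX vs. MYO and DOX and MYO vs. Hyper, against 35.4%, 35.4%, 45%, 0%, 0% and 26.6% of all genes. It changed no member's call in DOX vs. Control, added IL6 (adjusted p = 0.0179) and IL1R1 (0.0469) to the 3 in RemoLV, took CCL2 from MYO (0.15) and CXCL10 from DOX and MYO vs. Hyper (1.34 ± 0.48, 0.0528), and turned SELE in the latter from -0.18 to 0.50. With each library left out in turn, the counts were 3 to 7 in DOX, 3 to 6 in MYO, 3 to 6 in RemoLV, 0 to 3 in Hyper, 0 to 0 in DOX vs. MYO and 3 to 5 in DOX and MYO vs. Hyper; the highest of DOX (7), RemoLV (6) and the last (5) came without DOX1 and that of Hyper (3) without Control2, where 2538 of all genes were called. Over the same fits, 27.4 to 44.7%, 28.1 to 45.8%, 35.7 to 52.8%, 0 to 18.4%, 0% and 18.3 to 36.4% of all genes were called, and without DOX1 41.7% in DOX, 48.8% in RemoLV and 33.0% in the last. NFKBIA, TNFAIP3 and IRF1 in DOX and MYO vs. Hyper, NFKBIA in all its calls, TNFAIP3 in DOX, SOCS3 in MYO, and SOCS3 and ICAM1 in RemoLV kept their call in every one by file label.

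Directions turned in uncalled members, with these leave-one-out ranges: in DOX vs. Control ICAM1 -0.38 to 0.24, VCAM1 -0.51 to 0.24 and IL6 -4.28 to 0.11; in MYO vs. Control VCAM1 -0.57 to 0.17; in RemoLV vs. Control TNFAIP3 -0.12 to 0.17 and SELE -0.18 to 1.19; in Hyper vs. Control VCAM1 -0.19 to 0.56, IL6 -1.35 to 1.62 and SELE -2.52 to 1.54; in DOX vs. MYO TNFAIP3 -0.06 to 0.34, SOCS3 -0.14 to 1.64, VCAM1 -0.02 to 0.13, CCL2 -0.01 to 2.10, IL6 -2.04 to 2.33 and IL1R1 -0.10 to 0.49; in DOX and MYO vs. Hyper SOCS3 -0.16 to 1.10, IL6 -4.35 to 0.13 and SELE -0.77 to 3.29.

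The table names called 3 members in MYO and 2 in Hyper and turned 26 directions; they exchange Control with RemoLV and DOX5 with MYO1, which were not taken apart. In DOX vs. Control these were NFKBIA 0.16, SOCS3 1.68, ICAM1 1.38, CCL2 1.32, IL6 5.07 and IL1R1 0.06. In MYO vs. Control they were NFKBIA 0.15, SOCS3 0.29, ICAM1 1.22 and IL6 2.71. In RemoLV vs. Control all 10 turned, NFKBIA to 0.95, TNFAIP3 -0.02, SOCS3 3.31, ICAM1 1.47, VCAM1 -0.50, CCL2 1.94, IL6 5.22, SELE -0.69, IRF1 0.23 and IL1R1 0.70. In Hyper vs. Control they were SOCS3 0.37, ICAM1 0.82, VCAM1 -0.44 and IL1R1 0.12, and in DOX vs. MYO NFKBIA 0.01 and IRF1 -0.11. IL6 and SELE are limited by depth, with 1 to 111 counts per group.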
